A study of Rattus norvegicus and Homo sapiens with 12 samples.

Results

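The protein-coding genes of human chromosome 18 were described in DU145, an established line of human prostate carcinoma cells, as the change from the parental population (F0) to a population selected with the conditioned medium of mesenchymal stem cells (F2). Of the 269 protein-coding genes that GENCODE release 29 places on chromosome 18, 130 had a mean CPM (counts relative to the library's total, scaled to a common size) of at least 10 over the 6 DU145 libraries. Removing PMAIP1, RPL17, ATP5F1A and NDUFV2, which were set aside by name or by symbol, left 126 members, 39 on the short arm and 87 on the long arm, among 14316 genes tested. The members were chosen by position and level, but the chromosome itself was selected on the log2 fold changes of its genes between F2 and F0 in these same libraries, under the working name of a dosage-like shift. Its medians, counts and windows are therefore given as a description, with no test and no support read from them.

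Each cell carries a set number of copies of every chromosome, and carcinoma lines often carry whole or partial gains and losses. Genes on a gained or lost segment tend to be transcribed in proportion to their copies, so that neighbours move together by a similar small factor, although many genes are buffered. Chromosome 18 is among the gene-poor human chromosomes, and its long arm, which carries the TGF-beta mediators SMAD2 and SMAD4, is recurrently lost in several carcinomas. DNA was not measured here, so all values below are RNA levels.

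F0 DU145 was the untreated parental line, grown in DMEM with serum. F2 DU145 was the same line after repeated exposure to medium conditioned by purchased human mesenchymal stem cells, for 72 h a round, with 48 h of recovery in complete medium between rounds. The sample labels give 2 rounds and the description of the series gives 3, and nothing states whether the 3 F2 samples came from 1 selected culture or from separate selections, so the p-values measure the spread between these samples, which may be technical. Each population had 3 libraries, made with QuantSeq, a kit that counts transcripts by a tag near the 3′ end.

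The 6 libraries held 15879480 to 16479239 counts in genes. Mitochondrially encoded genes took 5.7% to 6.0% of them in F0 and 10.2% to 10.6% in F2, a difference that moves every other gene's share. The CPM values below were scaled by TMM, which resets the libraries to a common median gene, and scaling by library size alone lowered the median of the other autosomal genes from -0.0051 to -0.095 on the log2 scale. The epithelial markers KRT8, KRT18, KRT19 and EPCAM were at 28.8 CPM or more in every library, and CDH1 was at 11.9 to 15.1 CPM in F0 and 5.67 to 5.84 CPM in F2. The 10 listed markers of mesenchymal stem cells and stroma summed to 2.54 to 3.51 CPM in F0 and 1.79 to 2.81 CPM in F2, with THY1, LUM, POSTN, SPARC and CXCL12 at 0 counts, and 3 blood markers to 0.260 to 0.727 CPM.

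The members shifted little, and over all members together the shift was on the long arm. The median log2 fold change of the 126 members was -0.067, against -0.0051 for the 7990 other autosomal protein-coding genes of 10 CPM or more. It was -0.044 without F2 replicate 1, and with a level limit of 50 CPM it was -0.025, against -0.0029. On the short arm the median was 0.013, with 18 of 39 members lower in F2. On the long arm it was -0.091, with 64 of 87 lower (73.6%), against 51.3% of the other autosomal genes. The quartiles were -0.20 and 0.015 on the long arm and -0.078 and 0.12 on the short arm. Over both arms, 99 of the 126 members differed by less than 0.25 on the log2 scale, and 1 member, TNFRSF11A, differed by at least 2-fold. For scale, 3 copies in place of 4 would be a log2 ratio of -0.42. At or below that value were 3 long arm members (3.45%), CABLES1, CABYR and FECH, and 2 short arm members (5.13%), GNAL and CHMP1B, against 2.10% of the other autosomal genes. Over all members, a small lowering of the long arm median met the label of a dosage-like shift in these RNA levels. The short arm median did not. The arms differed in level, with a median of 67.7 CPM on the short arm and 30.3 CPM on the long arm. At 10 to 30 CPM the short arm median was -0.13 and the long arm median -0.10. Long arm genes under 10 CPM had -0.023, beside -0.036 for the other autosomal genes of that level. Whether copy number took part was not tested.

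In single genes, the quasi-likelihood test of edgeR, adjusted over all genes tested by Benjamini-Hochberg, called 14 members higher in F2, 22 lower and left 90 below the threshold of an adjusted p under 0.05. Among all genes tested, 9.49% were called higher and 8.67% lower. Among the other autosomal genes of the same level these shares were 11.9% and 11%, beside 11.1% and 17.5% of the members. The short arm had 5 members called higher and 4 lower, and the long arm 9 higher and 18 lower. With library size alone as the scale the same fit called 6 members higher and 50 lower, and kept 28 of the 36 calls. The lost calls included the higher calls of MYL12A, PPP4R1, MOCOS, DSG2, TYMS and CCBE1. The short arm median fell to -0.077, beside -0.095 for the other autosomal genes. The sign of the short arm median thus depends on the scaling. Under both scalings it lay above the median of the other autosomal genes, and the long arm median lay below it. When each library was left out in turn, 7 of the 14 higher and 13 of the 22 lower calls passed in all 6 fits. MIB1, TMEM241 and DSG2 passed in 1 of them, RMC1, B4GALT6, ZNF397 and LMAN1 in 2, PPP4R1 in 3, TGIF1, LAMA3 and SOCS6 in 4, and NPC1 in 5. In 25 members every F2 library lay above every F0 library, and in 39 every F2 library lay below, shares of 19.8% and 31.0%. Among the other autosomal genes of the same level, the populations were apart in this way in 19.5% (F2 higher) and 19.7% (F2 lower).

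**Figure D1:**
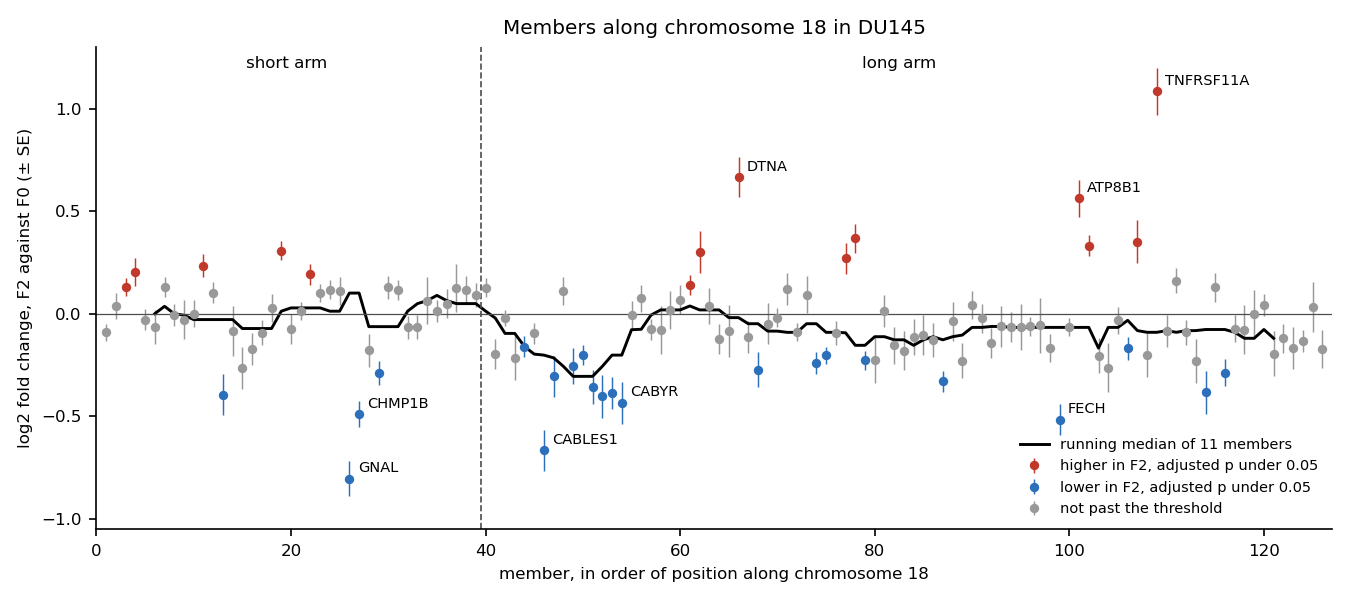
Log2 fold change of F2 against F0 DU145 (vertical axis, error bars ± SE of the edgeR fit) for the 126 members in order of position along chromosome 18 (horizontal axis). The black line, the running median of 11 members, stays near 0 on the short arm, falls to -0.31 early on the long arm, and lies mostly between -0.17 and 0 from there on.

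Relative to the other autosomal genes, the medians of the arms moved in opposite directions over all members. This did not hold over the members of 10 to 30 CPM, where the medians were -0.13 (short arm) and -0.10 (long arm). The other autosomal genes of that level had -0.0055. Nor did it hold over the members that overlap no other gene. There the short arm median was -0.029, against -0.0049 for the other autosomal genes in that setting. This value rests on few genes, since 34 of the 39 short arm members overlap another gene. Without F0 replicate 3 the short arm median was also below 0 (-0.0025), yet above that of the other autosomal genes (-0.0050). Each member's log2 CPM was centred on its mean over the 6 libraries, and the median over an arm was set against the median of the other autosomal genes. For the long arm the difference was 0.017, 0.053 and 0.050 for F0 replicates 1 to 3 and -0.068, -0.025 and -0.039 for those of F2. Every F2 library was below every F0 library. For the short arm the values were -0.028, -0.00078 and -0.021 in F0 and 0.025, 0.0081 and 0.0080 in F2, again without overlap but with F2 above F0. The population means differed by -0.084 on the long arm, where the replicate SD was 0.020 in F0 and 0.022 in F2, and by 0.030 on the short arm, where it was 0.014 and 0.010.

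The summed level showed the same split. All members together summed to 10502 ± 55.2 CPM in F0 (SD, n = 3) against 10494 ± 49.0 CPM in F2 (SD, n = 3), and these ranges overlapped. The short arm members went from 4776 ± 49.4 to 5044 ± 30.8 CPM (SD, n = 3 each), 1.06 times as much. The long arm members went from 5726 ± 41.7 to 5449.8 ± 18.3 CPM (SD, n = 3 each), 0.952 times as much. The F0 and F2 libraries did not overlap in either arm. Scaled by library size alone, the ratios were 0.939 for all members, 0.992 for the short arm and 0.894 for the long arm, so the short arm sum was higher in F2 with TMM and not with library size, the 2 scalings for which sums were taken. A sum is carried by the most abundant transcripts, and a median is not.

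**Figure D2:**
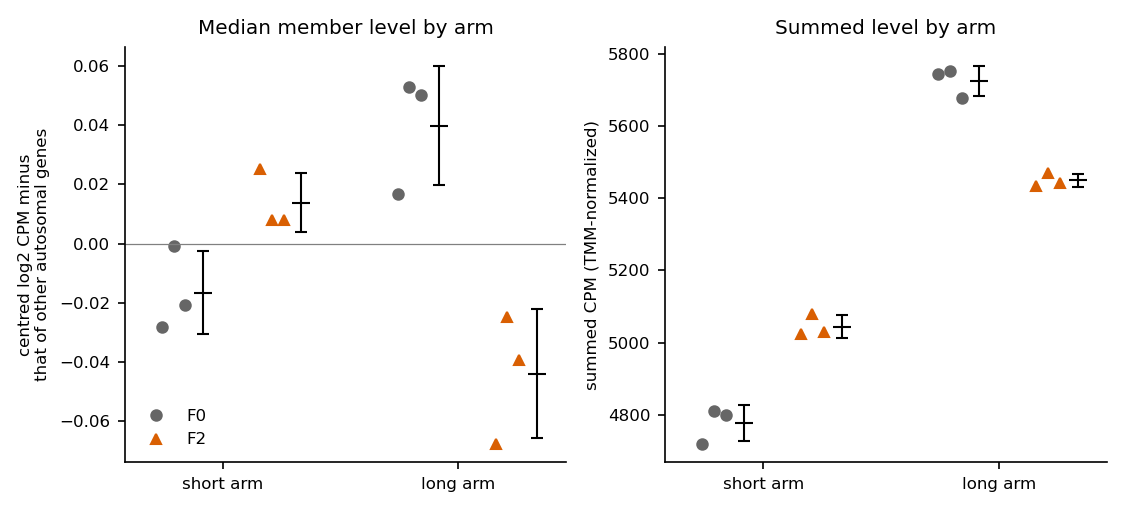
Left, median centred log2 CPM of the members of each arm minus that of the other autosomal genes; right, summed CPM of the members of each arm; each point is 1 library (circles F0, triangles F2), with the mean and SD of 3 libraries beside it. The F2 libraries lie above the F0 libraries on the short arm and below them on the long arm in both panels, with TMM scaling; by library size alone the short arm sum was 0.992 times that of F0.

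Set against the other 21 autosomes, chromosome 18 was not the lowest. Its median ranked 5th from the bottom, above chromosome 21 (-0.092, 85 genes), chromosome 5 (-0.085), chromosome 4 (-0.078) and chromosome 8 (-0.068). Chromosome 7 had the highest median, 0.049. By the share of genes called lower, chromosome 18 also ranked 5th of 22, with 17.5%, where chromosome 5 had 24.7% and chromosome 21 had 21.2%. The share called higher, 11.1%, ranked 13th from the top. The long arm alone had a median, -0.091, at the level of chromosomes 21 and 5.

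**Figure D3:**
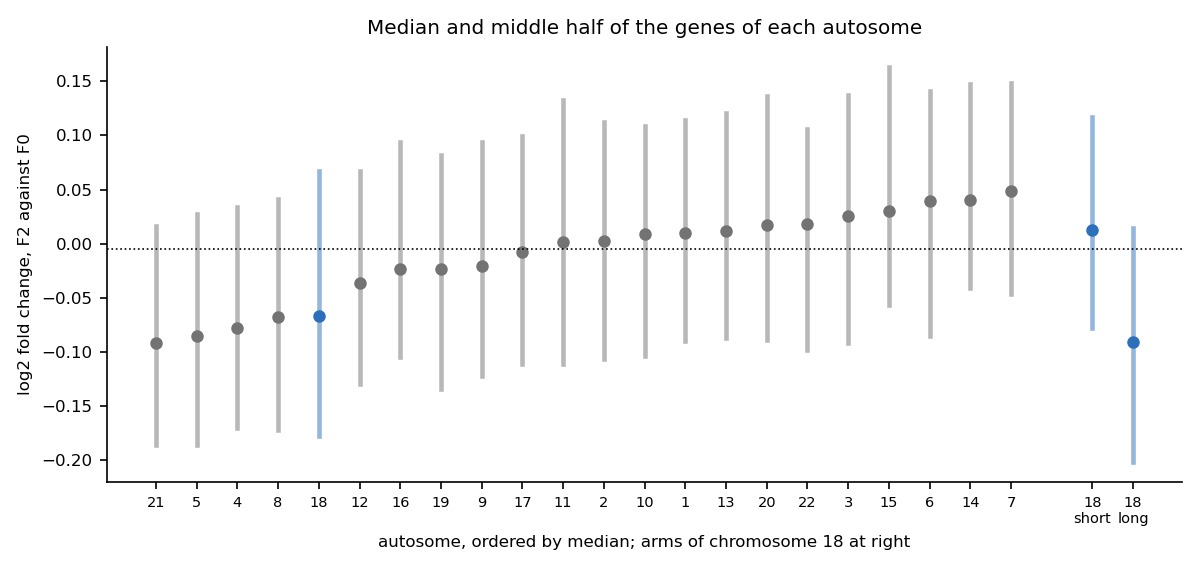
Median log2 fold change of F2 against F0 (points) and the range from the lower to the upper quartile (bars) for the protein-coding genes of 10 CPM or more on each autosome, in order of the median, with the arms of chromosome 18 at the right and the median of the other autosomal genes as a dotted line. Chromosome 18 (blue) sits 5th from the left, its short arm near 0 and its long arm at -0.091.

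The lowest stretch of neighbours lay early on the long arm. The arms were split at the widest gap between protein-coding genes of the chromosome, 18:14852739-20946905 in GRCh38, between ANKRD30B and ROCK1, which holds the centromere. Soon after the gap, the 11 adjacent members from MIB1 to CABYR (18:21704957-24161603) had a median log2 fold change of -0.31, the lowest of any window of 11 adjacent genes at this level on the 22 autosomes. The windows of 11 centred on NPC1 and ANKRD29, which reach on to OSBPL1A and IMPACT, had the same median, and the first window was taken. On the other 21 autosomes the lowest windows were on chromosome 21 (-0.26) and chromosome 5 (-0.25). Of the 11 members, 9 were called lower (81.8%, against 11% of the other autosomal genes) and 0 higher, and RBBP8 and RIOK3 did not pass. When each library was left out in turn, CABLES1, ANKRD29, TTC39C and CABYR passed in all 6 fits. MIB1, TMEM241, RMC1, LAMA3 and NPC1 did not. The window was picked for its low values, so these counts have no test. Without these 11, the other 76 long arm members had a median of -0.077, with 54 below 0, 9 called higher and 9 called lower. Outside the window the long arm thus had as many calls in one direction as in the other, with a median still below 0.

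The genes of the window have unrelated known roles. MIB1 is a ubiquitin ligase that activates Notch ligands, and its log2 fold change was -0.16 ± 0.051 (SE). CABLES1, an adaptor of cyclin-dependent kinases, had 27.4, 25.4 and 28.9 CPM in F0, against 19.9, 14.7 and 16.8 CPM in F2. It had the largest fall on the long arm, with no overlap between the populations and a log2 fold change of -0.67 ± 0.10 (SE, edgeR adjusted p = 9.93e-05). TMEM241 overlaps CABLES1 in the annotation on the opposite strand and was lower as well, by -0.31 ± 0.10. RMC1, a subunit of the complex that activates RAB7, overlaps NPC1, the lysosomal cholesterol exporter, on the opposite strand.

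NPC1 stood at 105, 112 and 109.5 CPM in F0 and at 94.8, 97.2 and 92.1 CPM in F2. Its 3 F2 libraries were all below the F0 libraries, a small difference of -0.20 ± 0.050 (SE, edgeR adjusted p = 0.0079). LAMA3, the alpha chain of laminin-332 in the epithelial basement membrane, had 17.3, 19.1 and 21.5 CPM in F0 and 13.7, 13.6 and 16.4 CPM in F2. The highest F2 library came within 1 CPM of the lowest F0 library, and the gene was called lower (-0.40 ± 0.11, edgeR adjusted p = 0.012). CABYR, a calcium-binding protein first known from the sperm tail, had 17.5, 17.9 and 17.5 CPM in F0 and 13.0, 14.5 and 11.7 CPM in F2. It ended the window with a fall of -0.43 ± 0.10 (SE, edgeR adjusted p = 0.0051).

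TTC39C (-0.39 ± 0.080) and ANKRD29 (-0.36 ± 0.082), whose products are little described, were called lower too. RIOK3, an atypical kinase of ribosome maturation, lay between ANKRD29 and CABLES1 and was the 1 member of the window above 0, with 33.8, 32.4 and 30.9 CPM in F0 and 35.4, 35.2 and 34.2 CPM in F2. RBBP8, which encodes the DNA end-resection factor CtIP, had 189, 178 and 169 CPM in F0 and 165, 176 and 161 CPM in F2, and its populations overlapped. The window's levels summed to 574 to 583 CPM in F0 and 492 to 518 CPM in F2. Directly after CABYR, OSBPL1A was at -0.0069 and IMPACT at 0.075, and neither passed, so the stretch ended there.

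**Figure D4:**
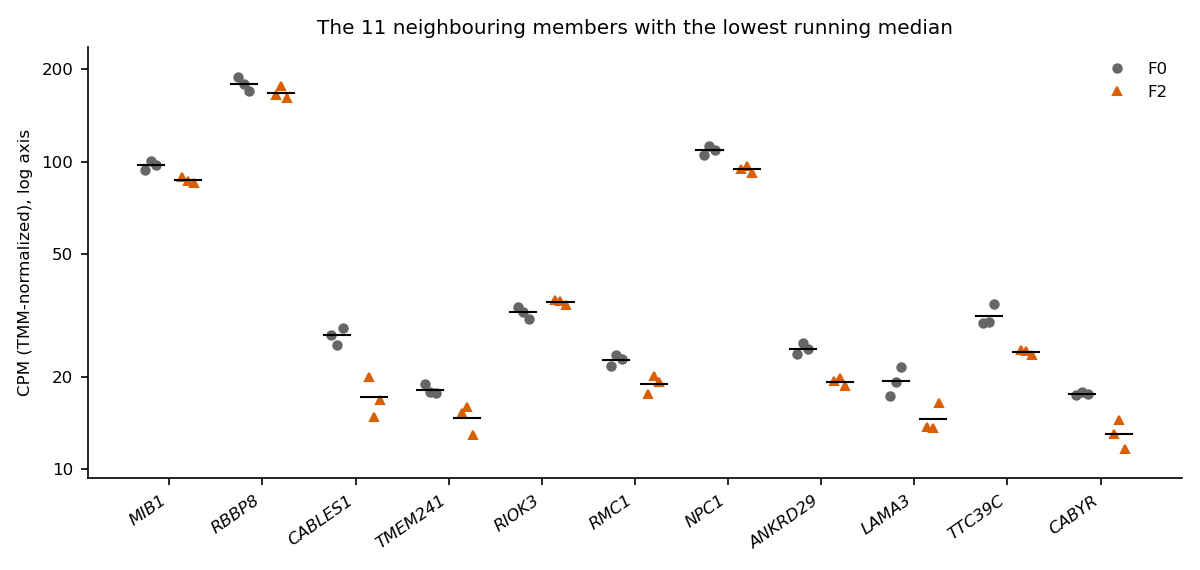
CPM on a log axis for the 11 neighbouring members with the lowest running median, in chromosomal order, with 3 F0 libraries (circles) and 3 F2 libraries (triangles) per gene and the mean as a bar. All F2 points lie below all F0 points in 9 of the 11, RBBP8 overlaps, and RIOK3 lies higher in F2.

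Elsewhere the direction of neighbours was mixed. The longest run of members on one side of 0 was 10, from CXXC1 to NARS1 on the long arm, all lower with a median of -0.067 and 1 call. The 8 members from HAUS1 to ACAA2 were also all lower, with a median of -0.14 and 1 call. The longest run above 0 had 7 members, CEP76 to ROCK1, across the centromere, with a median of 0.089 and 0 calls. On the short arm, the 4 neighbours GNAL, CHMP1B, MPPE1 and IMPA2 were all below 0, with 3 called lower, between NAPG at 0.11 and TUBB6 at 0.13, neither of which passed.

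The members that rose furthest were on the long arm, against the direction of its median. TNFRSF11A (18:62325287-62391292) encodes RANK, the receptor through which RANKL activates NF-kB and drives osteoclast formation. It had 7.14, 9.21 and 7.57 CPM in F0 and 17.0, 16.9 and 16.8 CPM in F2. Its F0 libraries were all under 10 CPM, so it met the level limit only through F2, where it was high, and had to differ. The populations were far apart, and the log2 fold change was 1.08 ± 0.11 (SE, edgeR adjusted p = 1.2e-06). DTNA, alpha-dystrobrevin of the dystrophin-associated complex, had 12.8, 15.4 and 13.7 CPM in F0 and 22.1, 21.1 and 23.3 CPM in F2. All F2 libraries were higher, by 0.67 ± 0.10 on the log2 scale (edgeR adjusted p = 6.03e-05). ATP8B1, a phospholipid flippase of the apical membrane, had 18.5, 23.8 and 21.4 CPM in F0 and 29.9, 32.7 and 31.6 CPM in F2. It rose by 0.56 ± 0.089 (edgeR adjusted p = 0.00016) without overlap.

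NEDD4L lies next to ATP8B1 and encodes a ubiquitin ligase of ion channels and of SMAD proteins. Its levels were 80.1, 78.9 and 78.6 CPM in F0 and 101, 101 and 96.2 CPM in F2. The F0 libraries differed by less than 2 CPM, and the rise was 0.33 ± 0.051 (edgeR adjusted p = 0.00011). FHOD3, a formin that assembles actin, rose by 0.37 ± 0.071, from 31.2 ± 0.54 CPM to 40.3 ± 2.6 CPM (SD, n = 3 each). CCBE1, a secreted factor of lymphatic growth, rose by 0.35 ± 0.11, from 10.9 ± 0.45 CPM to 13.9 ± 0.82 CPM (SD, n = 3 each). This call held in 2 of the 6 fits that leave out a library, and not in DESeq2 (adjusted p = 0.090) or with library size alone (edgeR adjusted p = 0.078). MOCOS, which sulfurates the molybdenum cofactor, rose by 0.27 ± 0.076, a call that held in 3 of the 6 fits. The largest rise on the short arm was that of ANKRD12. This gene, which encodes a nuclear ankyrin-repeat regulator, had 169, 171 and 158 CPM in F0 and 203, 208 and 207 CPM in F2, a rise of 0.31 ± 0.047 (edgeR adjusted p = 0.0001) with no overlap.

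The largest fall was on the short arm. GNAL (18:11688956-11885685) encodes a stimulatory G protein alpha subunit, known from olfactory neurons and striatum, and had 29.1, 29.4 and 27.7 CPM in F0 and 17.3, 15.4 and 16.6 CPM in F2. Its log2 fold change was -0.80 ± 0.084 (SE, edgeR adjusted p = 1.05e-06), and the populations were far apart. CHMP1B (18:11851396-11854449), an ESCRT-III subunit of membrane scission, lies inside GNAL on the same strand, so reads of the pair could be split between them. CHMP1B had 59.5, 66.4 and 66.9 CPM in F0 and 46.0, 44.4 and 46.7 CPM in F2, a fall of -0.49 ± 0.063 (edgeR adjusted p = 1.56e-05). IMPA2, an inositol monophosphatase a short way further on, was lower as well (-0.29 ± 0.060), and MPPE1 between them was at -0.18 and did not pass. FECH (18:57548283-57586772), ferrochelatase, which inserts iron into heme, had 35.9, 39.3 and 40.8 CPM in F0 and 27.3, 26.2 and 27.6 CPM in F2. It fell by 0.52 on the log2 scale (SE 0.074, edgeR adjusted p = 5.39e-05) without overlap.

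**Figure D5:**
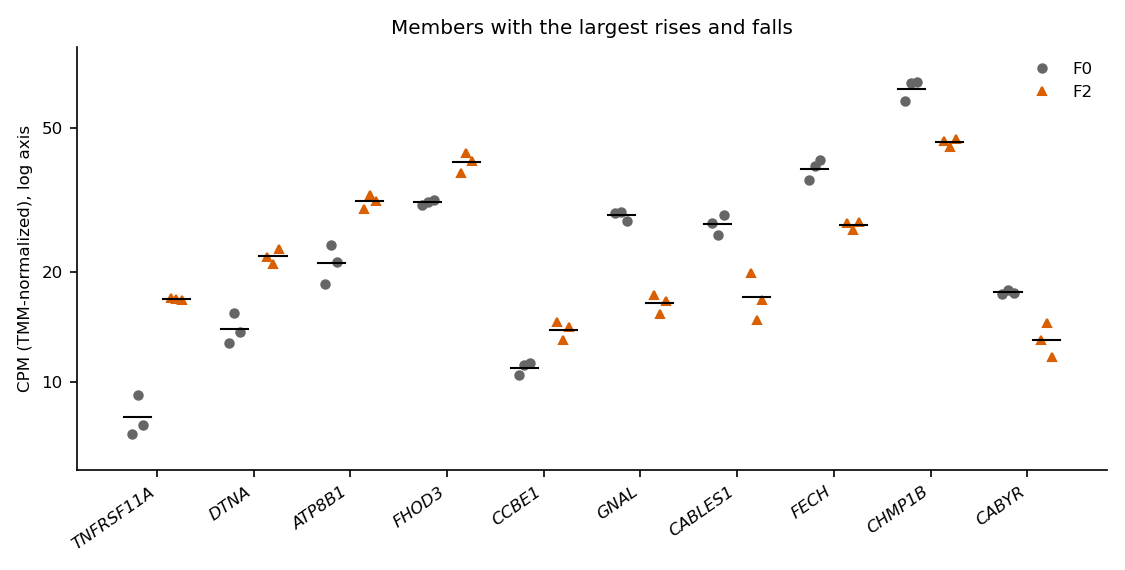
CPM on a log axis for the 5 members with the largest rises (left) and the 5 with the largest falls (right) among those called, with 3 F0 libraries (circles) and 3 F2 libraries (triangles) per gene and the mean as a bar. No F0 point overlaps an F2 point in any of the 10.

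The members were grouped by known role in 10 lists, which held 110 of the 126. Of the TGF-beta and BMP genes, 6 of the 9 listed were members, with a median of -0.092. SMAD2, the receptor-activated mediator (18:47808957-47931146), had 96.2, 98.0 and 102 CPM in F0 and 77.2, 77.0 and 81.6 CPM in F2. It was lower in every F2 library, by -0.33 ± 0.052 (SE, edgeR adjusted p = 0.00016). SMAD4, the common partner of the SMAD proteins (18:51028394-51085045), had 31.2, 29.7 and 31.9 CPM in F0 and 28.6, 29.3 and 30.8 CPM in F2. Its populations overlapped and it did not pass (-0.067 ± 0.073, edgeR adjusted p = 0.58). TGIF1, a repressor that binds SMAD2, was called lower (-0.40 ± 0.10), while NEDD4L, which marks SMAD2 for degradation, was called higher. TWSG1, a secreted binder of BMPs, was at -0.072 and PIAS2, a SUMO ligase, at -0.11, and neither passed.

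Of the 14 kinase and phosphatase genes listed, 11 were members, with a median of -0.10. PPP4R1, a regulatory subunit of protein phosphatase 4, was called higher (0.19 ± 0.051) and IMPA2 lower, and the other 9 did not pass. ROCK1, a kinase of actomyosin contraction, went from 238 ± 9.2 to 260.4 ± 1.9 CPM (SD, n = 3 each) without passing, and YES1, a Src-family kinase, had 99.8 ± 2.7 CPM and then 97.8 ± 2.3 CPM, which overlapped. The light chain MYL12A, which ROCK1 signalling activates, rose from 502, 587 and 592 CPM in F0 to 632, 691 and 653 CPM in F2. Its ranges were apart, and the change was 0.23 ± 0.055 (edgeR adjusted p = 0.0055). MYL12B, its near-identical neighbour, was at 0.10 ± 0.050 and did not pass, and reads that match both could be assigned to either or dropped.

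Of the cytoskeleton and mitosis genes, 16 of 20 were members, with a median of 0.020, 2 called higher (MYL12A, FHOD3) and 2 lower (CABLES1 and TPGS2, a subunit of the tubulin polyglutamylase). TUBB6, a beta-tubulin, had 665, 586 and 554 CPM in F0 and 689, 655 and 631 CPM in F2, and the populations overlapped. Of the desmosome, laminin and adhesion genes, 5 of 14 were members. The desmosomal cadherin DSG2 was called higher by a small margin (0.14 ± 0.047, edgeR adjusted p = 0.044, and 0.069 by DESeq2), from 142 ± 4.7 to 156 ± 3.2 CPM (SD, n = 3 each). Its partner DSC2 was at 0.069 and did not pass. EMILIN2, an elastic-fibre glycoprotein, was at -0.029 and LAMA1, a further laminin alpha chain, at -0.27, and neither passed.

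Of the apoptosis, NF-kB and serpin genes, 3 of 15 were members and 12 were under 10 CPM, among them BCL2. Besides TNFRSF11A, SOCS6, a suppressor of cytokine signalling, was called lower (-0.38 ± 0.10, edgeR adjusted p = 0.014). MALT1, the paracaspase that carries antigen-receptor signals to NF-kB, had 23.6, 21.7 and 24.0 CPM in F0 and 19.3, 20.9 and 20.0 CPM in F2. Its F2 libraries were all lower, yet the test did not pass (-0.20 ± 0.084, edgeR adjusted p = 0.10). Of the chromatin and transcription genes, 20 of 34 listed symbols were members, and 16 of the 20 had a log2 fold change below 0, with a median of -0.069 over the list. ANKRD12 was called higher, and RPRD1A, which binds the tail of RNA polymerase II, and the zinc finger gene ZNF397 lower. ZNF24, the zinc finger gene with the most counts of the list, was at -0.019.

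Of the 26 membrane traffic and lipid transport genes, 17 were members, with 1 called higher (ATP8B1) and 4 lower (CHMP1B, NPC1, MIB1 and LMAN1). LMAN1, a cargo receptor between the endoplasmic reticulum and the Golgi, had 420.1, 405 and 363 CPM in F0 and 348, 376 and 332 CPM in F2. Its populations overlapped, and the fall of -0.17 ± 0.056 passed narrowly (edgeR adjusted p = 0.039). VAPA, a tether of the endoplasmic reticulum, and RAB31, a small GTPase of endosomes, were at 0.12 and 0.10 and did not pass. Of the metabolism genes, 18 of 25 were members, 3 called higher and 3 lower. TYMS, thymidylate synthase, had 298, 309 and 318 CPM in F0 and 332, 336 and 345 CPM in F2. It rose by 0.13 ± 0.043 (edgeR adjusted p = 0.041), as did ENOSF1 (0.20 ± 0.068), whose 3′ end overlaps that of TYMS on the opposite strand. Both calls held in 2 of the 6 fits that leave out a library, and with library size alone TYMS was at 0.041 (edgeR adjusted p = 0.53). SLC39A6, a zinc importer, fell from 288, 287 and 288 CPM to 252, 244 and 254 CPM, a tight separation of -0.20 ± 0.042 (edgeR adjusted p = 0.0021). CYB5A, the electron donor cytochrome b5, was lower by -0.29 ± 0.066, B4GALT6, a lactosylceramide synthase, was higher by 0.30 ± 0.10 with overlapping libraries, and GALNT1, which starts mucin-type glycosylation, was at -0.091 and did not pass.

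In the RNA processing and translation list, 12 of 16 genes were members, with a median of 0.0063. The 1 call of this list was ENOSF1, by name an enolase superfamily gene, and the other 11 members did not pass. SNRPD1, a core protein of the spliceosomal snRNPs, had 609, 607 and 589 CPM in F0 and 599, 587 and 593 CPM in F2, and these overlapped. NARS1, the asparaginyl-tRNA synthetase, at -0.067, and TXNL4A, a component of the U5 snRNP, at -0.13, did not pass although their F2 libraries were all below F0. In the proteasome and ubiquitin list, 2 of 7 genes were members, the deubiquitinase USP14 (-0.091) and the proteasome assembly chaperone PSMG2 (-0.063), with 0 calls. The ubiquitin ligases MIB1, called lower, and NEDD4L, called higher, were placed in other lists. The 16 members in no list had a median of -0.14, with 2 called higher (DTNA and CCBE1) and 6 lower (GNAL, TMEM241, RMC1, ANKRD29, TTC39C and CABYR).

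The short arm's members differed by level more than the long arm's. Its 10 members of 10 to 30 CPM had a median of -0.13, the 15 of 30 to 100 CPM 0.013, and the 14 of 100 CPM or more 0.12. On the long arm the same classes had medians of -0.10 (41 members), -0.079 (32) and -0.094 (14), and those of the other autosomal genes were -0.0055, -0.011 and 0.0073. Chromosome 18 transcripts had a lower GC content than the rest, with a median of 43.0% against 48.2%. In 3 classes of GC with equal numbers of other autosomal genes, the long arm medians were -0.093, -0.077 and -0.12 from low to high GC, where those of the other genes were -0.0092, 0.0015 and -0.0055. GC content was not used by the rule, and its part in the shift was not tested further. In all, 97 of the 126 members overlap another annotated gene, on either strand. The 29 that overlap none had 0 called higher and 7 lower, with a median of -0.072. Over all other autosomal genes of 10 CPM or more, 11.9% were called higher and 11% lower. Calls among the other autosomal genes that overlap none were not counted, so the 0 and 7 are read no further. At the edge of the rule, CEP76 and TAF4B lay just above 10 CPM, at means of 10.1 each with log2 fold changes of 0.064 and -0.078, and PHLPP1 (9.67 CPM, -0.10) and SERPINB8 (9.55 CPM, 0.38) lay just below.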

How the data were processed

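Libraries of F0 and F2 DU145, 3 each, were prepared with the QuantSeq 3′ mRNA-Seq kit (forward) and sequenced as single-end reads. Alignment and counting were done by the authors with the Bluebee service, and raw gene counts were deposited, not normalized. The submitters' processing notes name STAR 2.5.2a, HTSeq 0.6.0 and GRCh38. The strand setting and annotation release are not given in the sources used here. Lines that name no gene stayed out of library sizes: reads outside genes were 9.60% to 10.0% of uniquely placed reads in F0 and 11.3% to 11.9% in F2, and ambiguous reads 1.36% to 1.50%. The 92 spike-in lines held 0 counts. Duplicates of PCR remain in the counts.

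The DU145 table was tested as a whole, F2 against F0, by quasi-likelihood in edgeR 4.0.16 (R 4.3.3) after TMM scaling and filterByExpr at a count of 10 and a total of 15. CPM values are TMM-normalized. Positions, types, overlaps and transcript GC came from GENCODE release 29, which placed 56531 of 60107 identifiers. Arms were split at the widest gap between protein-coding genes. Alternatives were other scalings, filters, level limits, DESeq2 1.42.0, a replicate block and each library left out. The procedure was tested on simulated data. No 2 libraries of a population agreed within sampling noise: chi-square per degree of freedom over genes was 2.19 to 5.92.

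The members, role lists and marker lists were chosen with earlier results of these data known. Named were the 3 members with the most counts in each list, the 5 largest rises and falls among calls, up to 10 calls against the median, and the genes next to 10 CPM. Other members are named as parts of counts or of the lowest window, after their values were seen. The rat table (PAIII) was not used here. Some items are not reported here.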

Additional observations from a re-analysis of the deposited data

How the results depend on the processing

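The long arm median stayed below 0 under every alternative run, and the difference between the members and the other autosomal genes did too. With library size alone as the scale, the median log2 fold change was -0.16 for the members, -0.077 for the short arm, -0.18 for the long arm and -0.095 for the other autosomal genes, with 6 members called higher and 50 lower, and DSC2 (-0.021) and CEP76 (-0.026) changed sign. A level limit of 50 CPM gave -0.025 for the members, 0.039 for the short arm, -0.0029 for the other genes and a difference of -0.022, with 6 higher and 10 lower. Members that overlap no other gene gave -0.029 for the short arm, where 34 of the 39 members overlap one. Over both arms, the 29 members that overlap none had 0 called higher and 7 called lower. Calls among the other autosomal genes that overlap none were not counted. For the other autosomal genes, RLE size factors gave -0.0036, no filter -0.0032 and a limit of 1 CPM -0.0096, shifts that are small beside those of the members. DESeq2 called 10 members higher and 18 lower, and 28 of the 36 calls of edgeR were shared.

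When each library was left out in turn, the median lay between -0.083 and -0.044 for the members, between -0.0025 and 0.031 for the short arm, between -0.11 and -0.078 for the long arm, between -0.0050 and -0.00063 for the other autosomal genes, and between -0.078 and -0.043 for the difference. Between 7 and 14 members were then called higher and between 15 and 23 lower. The lowest counts came without F0 replicate 2 (7 higher, 16 lower) and without F2 replicate 1 (8 higher, 15 lower). The short arm median fell below 0 without F0 replicate 3. EMILIN2 lay between -0.10 and 0.10, above 0 without F0 replicate 3 or F2 replicate 2 (0.0095), and ZNF24 between -0.049 and 0.016, above 0 without F2 replicate 2 or F0 replicate 1 (0.0039), and neither passed in any of these fits. The cause of these changes was not tested. Over the 41 named members, 480 values kept direction and side of the threshold, 34 fell short of it, 13 newly passed it and 6 changed sign.

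The labels do not say whether samples with the same replicate number share more than that number. The correlation of their deviations was 0.17, -0.040 and 0.17. For samples with different numbers it lay between -0.20 and 0.067. Whether the samples were paired was not tested. The fit with the replicate block called 16 members higher and 22 lower. Its medians were -0.067, 0.013 and -0.091 for all members, the short arm and the long arm. It lost 0 of the 36 calls. Not every sample correlated best with its own number. Depth limits most the members near 10 CPM, and with 3 libraries a population no member as close to 0 as the long arm median was called.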

Other observations

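Below the level of the members, 42 further protein-coding genes of chromosome 18 had enough counts to be tested, besides 1 that the rule sets aside by name. Their median log2 fold change was -0.023, with 21 above and 21 below 0, beside -0.036 for the 3472 other autosomal protein-coding genes under 10 CPM. The long arm genes of this level, 36 in all, also had a median of -0.023, with 18 below 0. Of the 42, edgeR called 3 higher (7.14%) and 1 lower (2.38%), beside 4.93% and 7.26% of the other autosomal genes under 10 CPM. LIPG, the endothelial lipase, had 1.12, 1.03 and 1.18 CPM in F0 and 2.49, 4.16 and 3.25 CPM in F2, without overlap (log2 fold change 1.56 ± 0.26, SE, edgeR adjusted p = 0.00032). ST8SIA5, a ganglioside sialyltransferase, had 0.177, 0.666 and 0.592 CPM in F0 and 1.15, 1.43 and 1.15 CPM in F2 (1.37 ± 0.41). Its F0 libraries did not all reach the filter on counts. It was thus tested only through F2, where it was high, and no support is read from its call. SERPINB8, an intracellular protease inhibitor, was higher by 0.38 ± 0.13. PSTPIP2, an F-BAR protein of the actin cortex, was lower by 0.39 ± 0.13 on the log2 scale, from 10.4 ± 1.2 CPM to 7.90 ± 0.65 CPM (SD, n = 3 each). These genes were named after their values were seen.

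The 56 non-coding genes of chromosome 18 that were tested had a median of -0.039, with 3 called higher (5.36%) and 2 lower (3.57%). Among all genes tested these shares were 9.49% and 8.67%, and non-coding genes of other autosomes were not summarized. Both of those called lower were antisense genes close together near the end of the long arm, PARD6G-AS1 (18:80147924-80178432) and ENSG00000267251 (18:80183680-80202992). ENSG00000267251 had 0.448, 0.260 and 0.128 CPM in F2, so it met the filter on counts only through F0, where it was high. PARD6G-AS1 had 2.48, 2.48 and 2.90 CPM in F0 and 1.02, 1.49 and 1.34 CPM in F2 (-1.02 ± 0.26, edgeR adjusted p = 0.0084). Reads of an antisense gene and of its partner cannot be told apart where the strand setting is not known.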
